A study of Homo sapiens with 12 samples.

Results

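The Aurora kinases AURKA and AURKB, the polo-like kinase PLK1, the kinase NEK2, the kinase activators TPX2 and BORA, and the passenger proteins BIRC5, INCENP and CDCA8 were followed in HCT116 cells, an established line from a human colorectal carcinoma. These 9 genes were picked by their GENCODE 29 symbols from the 58174 genes of the deposited table, and 13458 genes, all 9 among them, passed the filter on low values. RNA was sequenced in 12 libraries, 2 for each of 6 groups, from cells given dolastatin 15, a peptide of marine origin that binds tubulin and blocks microtubule assembly. The groups were 20 nM for 16 h (libraries 1 and 2), 100 nM for 16 h (3 and 4), solvent for 16 h (5 and 6), 20 nM for 24 h (7 and 8), 100 nM for 24 h (9 and 10) and solvent for 24 h (11 and 12). Every group, the solvent groups included, carried 0.25% DMSO, and treatments were made in duplicate. Nothing in the labels says that duplicates came from separate cultures. Each p-value rests on the spread between duplicates over all 6 groups, drawn in part toward that of genes of like level. That spread may be technical.

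Mitotic kinases act through partners that switch them on and place them. AURKA works at centrosomes and spindle poles, where TPX2 holds it in its active form on spindle microtubules, and together with BORA it phosphorylates and activates PLK1, which drives entry into mitosis, centrosome maturation and later steps up to cytokinesis. NEK2 loosens the link between duplicated centrosomes. The chromosomal passenger complex joins AURKB to its scaffold INCENP, to survivin (BIRC5) and to borealin (CDCA8), corrects wrong attachments between kinetochores and microtubules, and is needed for cytokinesis. Most of these genes are known to be transcribed in G2 and mitosis, and drugs that block microtubule assembly are known to hold cells in mitosis through the spindle checkpoint.

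Levels are given as FPKM (fragment counts divided by transcript length and by library size), which allows levels of different genes to be compared per length. Changes are differences of log2(FPKM + 1) with a standard error (SE) from 1 limma fit over all 12 libraries, and a gene was called when its Benjamini-Hochberg adjusted p, taken over all 13458 genes, was under 0.05. In bulk RNA, fewer cells in a given phase and less RNA per cell cannot be told apart. The library sums of FPKM ranged from 911720.3 to 1049886.3, and read depth is unknown. The lowest sums were those of solvent at 24 h (911720 and 929715) and the highest those of 20 nM at 24 h (1.04825e+06 and 1.04989e+06). Mitochondrial transcripts took 17.9% to 25.8% of the FPKM. They took 23.8% and 25.8% in the 20 nM, 24 h libraries, against 17.9% and 18.6% in solvent at 24 h. In the 100 nM, 16 h libraries they took 22.2% and 24.5%, against 21.6% and 22.2% in solvent at 16 h. The part of these shares in the results was not tested beyond the rescaling given with them. Epithelial markers were high in every library (EPCAM 251 to 335 FPKM, KRT8 409.6 to 458 FPKM) although CDH1 was low (2.91 to 3.92 FPKM) and CDX1 was listed at 0.03 FPKM or less. PTPRC, COL3A1 and CDH5, which mark leukocytes, fibroblasts and endothelial cells, stayed at 0.04 FPKM or less. The sums of the 3 leukocyte, 3 fibroblast and 3 endothelial markers ranged from 7.05 to 18.95, 1.67 to 4.75 and 0.05 to 0.40 FPKM, and nearly all of the leukocyte sum was CD68 (7.04 to 18.95 FPKM), whose sum was highest in the 24 h drug libraries (14.3 to 18.95 FPKM, against 9.16 to 11.5 FPKM in solvent).

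The 9 genes did not move as 1 group. After 16 h of drug, AURKA, PLK1, TPX2, BORA, BIRC5 and CDCA8 rose at both doses, whereas AURKB and INCENP fell at both doses and NEK2 rose at 100 nM. At 24 h none of the 9 was called higher: AURKB, INCENP, NEK2, PLK1 and CDCA8 were called lower at both doses, and AURKA and BIRC5 were called lower at 20 nM and not at 100 nM. AURKB and its scaffold INCENP thus went down at 16 h in the same libraries in which BIRC5 and CDCA8, the other members of their complex, went up.

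**Figure D1:**
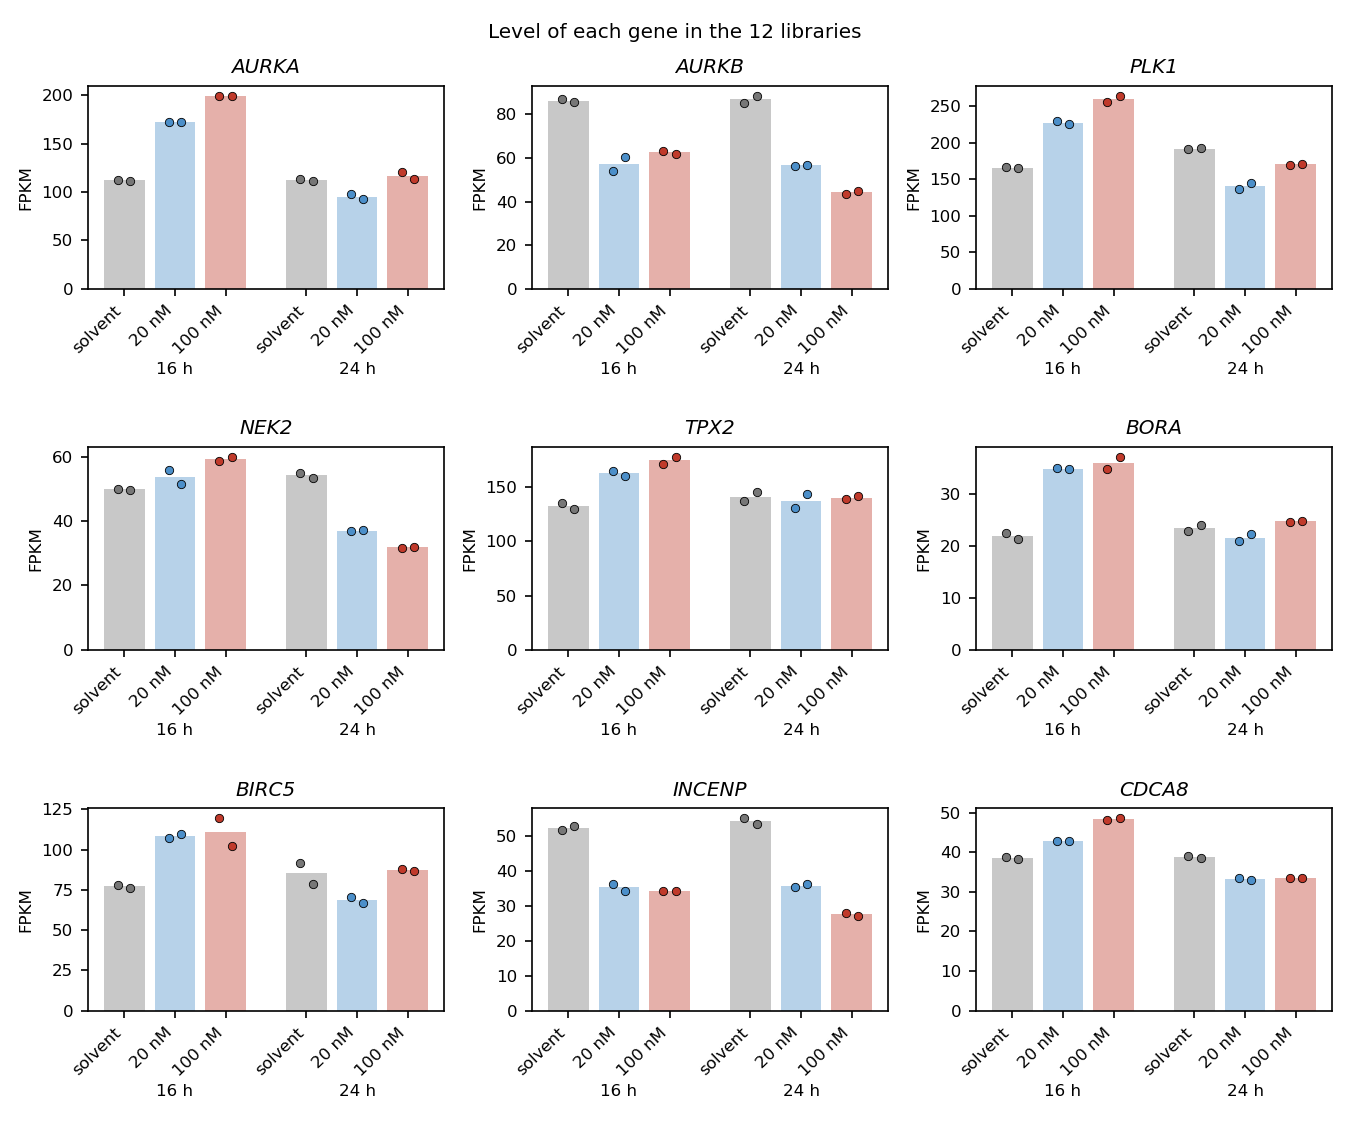
FPKM (vertical axes, linear, from 0) of the 9 genes in each of the 12 libraries, by group on the horizontal axes, with 1 point for each library and bars at the group means. AURKA, PLK1, TPX2, BORA, BIRC5 and CDCA8 are high in the drug libraries at 16 h, while AURKB and INCENP are low in every drug library at both times.

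Counted over the 9 genes, 6 rose, 2 fell and 1 (NEK2) was not called at 20 nM and 16 h. Over all genes tested in that comparison, 6.78% were called higher and 11% lower. At 100 nM and 16 h 7 of the 9 rose and 2 fell, against 9.16% higher and 14.7% lower over all genes. At 20 nM and 24 h 0 of the 9 rose, 7 fell and 2 were not called by limma, against 14.7% higher and 14.1% lower. At an unadjusted p under 0.05 the same 7 and no other passed, beside 5480 of the 13458 genes tested. At 100 nM and 24 h 0 rose, 5 fell and 4 were not called, against 15.4% higher and 18.4% lower. There 5 passed at an unadjusted p under 0.05, beside 6010 of the 13458 genes tested. The median log2 change over the 9 genes was 0.29, 0.40, -0.30 and -0.17 in these comparisons, beside -0.024, -0.028, 0.0018 and -0.024 over all genes tested. The 20 nM and 100 nM comparisons of a time share their solvent libraries, so their values are given side by side and are not independent of each other.

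The RefSeq promoter table (GRCh38.p14, 250 bases before to 50 after a start site) held 6 of the 9 genes: AURKB, PLK1, NEK2, BORA, INCENP and CDCA8. Any part of promoter sequence in the changes was not tested. The stretches shown compare the pair that fell together (AURKB, INCENP) with PLK1 and CDCA8, which rose at 16 h, and with NEK2. They end before the first exon of a coding transcript that GENCODE 29 places in the window, read 5′ to 3′ on the gene's own strand, and capitals mark CCAAT (written ATTGG where it is on the opposite strand) and TTTAAA. Their positions are chr17:8210255-8210404 (minus strand) for AURKB, chr11:62123823-62123972 (plus) for INCENP, chr16:23678672-23678821 (plus) for PLK1, chr1:37692268-37692417 (plus) for CDCA8 and chr1:211675631-211675780 (minus) for NEK2. Those of INCENP, CDCA8 and NEK2 end at the annotated start of the gene, and that of NEK2 runs into an exon of the antisense gene AC096637.2. Those of AURKB and PLK1 lie inside the annotated gene: the AURKB stretch is intronic in transcripts that start farther upstream, and the PLK1 stretch is exonic in a retained-intron transcript.
AURKB: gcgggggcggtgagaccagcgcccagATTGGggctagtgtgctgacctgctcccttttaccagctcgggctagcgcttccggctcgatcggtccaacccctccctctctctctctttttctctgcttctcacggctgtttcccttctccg
INCENP: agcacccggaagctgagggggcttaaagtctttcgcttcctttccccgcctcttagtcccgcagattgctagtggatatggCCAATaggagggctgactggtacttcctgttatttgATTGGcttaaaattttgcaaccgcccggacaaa
PLK1: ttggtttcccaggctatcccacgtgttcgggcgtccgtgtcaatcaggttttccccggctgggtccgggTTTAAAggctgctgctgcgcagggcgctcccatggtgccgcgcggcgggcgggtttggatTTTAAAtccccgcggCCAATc
CDCA8: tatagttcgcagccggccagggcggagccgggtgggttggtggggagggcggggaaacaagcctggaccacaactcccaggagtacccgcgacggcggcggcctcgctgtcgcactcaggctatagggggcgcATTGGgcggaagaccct
NEK2: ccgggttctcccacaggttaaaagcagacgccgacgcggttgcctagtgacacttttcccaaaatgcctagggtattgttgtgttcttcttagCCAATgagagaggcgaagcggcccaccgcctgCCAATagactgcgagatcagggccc
Closer to the start sites, the letters TTTGAA, a form of the cell cycle genes homology region, were found in PLK1 (29 bases before the start), CDCA8 (23 before) and INCENP (10 before), shown here within 30 bases (chr16:23678848-23678877, chr1:37692481-37692510 and chr11:62123989-62124018, all on the plus strand). GENCODE 29 places all 3 of these within an exon of the same gene. In CDCA8 the capitals run on because an opposite-strand CCAAT overlaps TTTGAA.
PLK1: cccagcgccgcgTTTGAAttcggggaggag
CDCA8: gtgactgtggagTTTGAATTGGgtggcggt
INCENP: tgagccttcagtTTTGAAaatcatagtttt

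The motifs TTTGAA and TTTAAA, the related TTCGAA, the CCAAT box and the E2F-type motif GGCGGGAA were searched on both strands of the 300-base windows. At least 1 of the 3 homology-region forms (with TTTGAA among them) stood in PLK1, BORA, INCENP and CDCA8, and in 25.1% of all 35116 promoters in the table. At least 2 CCAAT matches stood in NEK2, BORA, INCENP and CDCA8, and in 10.8% of all promoters. AURKB had 1 CCAAT match and PLK1 had 1, a motif that 34.6% of all promoters hold, and GGCGGGAA, held by 3.16%, was in none of the 6. The AURKB windows did not reach the coding transcripts that start farther upstream (8210568 to 8210598). Sequence before those starts was not searched, so the matches of AURKB are not like for like with those of the other genes. INCENP, which fell at 16 h, and CDCA8, which rose, carried the same kinds of match (TTTGAA and 3 CCAAT each). AURKA, TPX2 and BIRC5 are not in the promoter table. A match describes letters in a window only.

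AURKA (ENSG00000087586, chromosome 20, 56369389 to 56392337, minus strand, GRCh38), the kinase of the spindle poles, stood at 113 and 111 FPKM in the solvent libraries at 16 h. It read 173 and 173 FPKM at 20 nM and 199.8 and 199 FPKM at 100 nM at that time. All 4 drug libraries lay above both solvent libraries, and the log2 changes were 0.62 (SE 0.04, adjusted p = 3.34e-05 in limma) and 0.83 (SE 0.04, adjusted p = 4.24e-06), or 1.54-fold and 1.77-fold on the FPKM + 1 scale. At 24 h it read 113 and 111 FPKM in solvent, 97.7 and 92.9 FPKM at 20 nM, and 120.4 and 113 FPKM at 100 nM. The 20 nM libraries were the lowest of that time (log2 change -0.23, adjusted p = 0.00322). The change at 100 nM was 0.059 with a 95% interval of -0.031 to 0.15 (adjusted p = 0.284), and its sign turned when libraries were rescaled to a common sum (-0.036).

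TPX2 (ENSG00000088325, chromosome 20, 31739271 to 31801805, plus strand), the spindle protein that activates AURKA, read 135 and 130.2 FPKM in solvent, 165 and 161 FPKM at 20 nM and 172 and 179 FPKM at 100 nM after 16 h. The drug libraries again lay above solvent without overlap, by log2 0.29 (SE 0.05, adjusted p = 0.00561) and 0.40 (SE 0.05, adjusted p = 0.000832). At 24 h it read 138 and 145 FPKM in solvent, 131 and 144 FPKM at 20 nM, and 139 and 142 FPKM at 100 nM, and the groups overlapped. The log2 changes at 24 h were -0.045 (95% interval -0.16 to 0.071, adjusted p = 0.546) and -0.0079 (-0.12 to 0.11, adjusted p = 0.924), the latter turning to 0.023 with median-of-ratios scaling.

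BORA (ENSG00000136122, chromosome 13, 72727749 to 72756198, plus strand), the cofactor through which AURKA activates PLK1, was the least expressed of the 9 in 5 of the 6 groups. At 16 h it read 22.6 and 21.3 FPKM in solvent, 35.1 and 34.8 FPKM at 20 nM, and 34.8 and 37.3 FPKM at 100 nM. The drug libraries stood apart from solvent and overlapped between doses, with log2 changes of 0.65 (SE 0.05, adjusted p = 0.000117) and 0.69 (SE 0.05, adjusted p = 4.67e-05). At 24 h the levels were 22.9 and 24.0 FPKM in solvent, 21.0 and 22.3 FPKM at 20 nM, and 24.7 and 24.9 FPKM at 100 nM. Neither 24 h change was called: -0.11 at 20 nM (95% interval -0.23 to 0.012, adjusted p = 0.159) and 0.080 at 100 nM (-0.041 to 0.20, adjusted p = 0.284). BORA overlaps DIS3 on the opposite strand over 4030 bases, and since the strand setting of the counting is not given, reads of that stretch cannot be told apart. DIS3, read at 40.6 to 56.7 FPKM, was not called at 16 h (0.13 and 0.072) and was called higher at 24 h (0.26 at both doses).

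Rescaling to a common sum moved the median log2 change of all genes at 20 nM and 24 h from 0.0018 to -0.16. Under it TPX2 (-0.23, adjusted p = 0.00452) and BORA (-0.29, adjusted p = 0.00171) were called lower at that dose and time. All genes tested then split into 570.0 higher and 4666 lower, in place of 1984 higher and 1896 lower. At 100 nM and 24 h the same rescaling gave 1145 higher and 3739 lower in place of 2075 and 2475, and BORA turned to -0.013. The 7 genes called lower at 20 nM and 24 h were called lower under this scaling too.

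PLK1 (ENSG00000166851, chromosome 16, 23677656 to 23690367, plus strand), which is itself activated by AURKA with BORA, had the highest mean of the 9 genes in every group. It read 167 and 165 FPKM in solvent, 229 and 226 FPKM at 20 nM and 256 and 265 FPKM at 100 nM after 16 h. The groups did not overlap, and the log2 changes were 0.45 (SE 0.04, adjusted p = 8.77e-05) and 0.65 (SE 0.04, adjusted p = 6.81e-06). At 24 h the order was turned around: 192 and 192 FPKM in solvent, 137 and 144 FPKM at 20 nM, and 169.6 and 171 FPKM at 100 nM. The lower dose thus held the lowest PLK1 level, with log2 changes of -0.45 (SE 0.04, adjusted p = 0.000104) at 20 nM and -0.17 (SE 0.04, adjusted p = 0.00628) at 100 nM. PLK1 overlaps an antisense gene, AC008870.3, read at no more than 0.53 FPKM, and ERN2, read at no more than 0.15 FPKM.

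NEK2 (ENSG00000117650, chromosome 1, 211658657 to 211675630, minus strand), the centrosome-linker kinase, moved less at 16 h. It read 50.03 and 49.9 FPKM in solvent, 55.9 and 51.7 FPKM at 20 nM, and 58.8 and 60.2 FPKM at 100 nM. Both doses lay above solvent without overlap, but the log2 change at 20 nM was not called (0.10, 95% interval 0.0030 to 0.20, adjusted p = 0.145) while that at 100 nM was (0.25, SE 0.04, adjusted p = 0.00434). At 24 h NEK2 read 55.2 and 53.6 FPKM in solvent, 37.0 and 37.2 FPKM at 20 nM, and 31.7 and 32.0 FPKM at 100 nM. These 3 groups stood in a clear order with solvent highest, and the log2 changes were -0.54 (SE 0.04, adjusted p = 0.000115) and -0.75 (SE 0.04, adjusted p = 1.02e-05). Copies of AURKA and NEK2 took little signal: AURKAP1 was read at 1.16 FPKM or less, and NEK2P2 and NEK2P4 were listed at 0.

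AURKB (ENSG00000178999, chromosome 17, 8204733 to 8210600, minus strand), the enzyme of the passenger complex, was lower in all 8 drug libraries than in all 4 solvent libraries. At 16 h it read 86.9 and 85.9 FPKM in solvent, 54.2 and 60.6 FPKM at 20 nM, and 63.4 and 61.8 FPKM at 100 nM. The log2 changes were -0.58 (SE 0.05, adjusted p = 0.000194) and -0.46 (SE 0.05, adjusted p = 0.000466), so AURKA and AURKB, close relatives in sequence, went in opposite directions at this time. At 24 h it read 85.2 and 88.6 FPKM in solvent, 56.5 and 56.8 FPKM at 20 nM, and 43.3 and 45.01 FPKM at 100 nM. The 100 nM libraries at 24 h were the lowest of the 12, with a log2 change of -0.96 (SE 0.05, adjusted p = 8.47e-06), or 1.95-fold lower, and the change at 20 nM was -0.61 (SE 0.05, adjusted p = 0.000149).

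INCENP (ENSG00000149503, chromosome 11, 62123973 to 62153163, plus strand), the scaffold that binds and activates AURKB, followed the same course. At 16 h it read 51.7 and 52.8 FPKM in solvent, 36.3 and 34.2 FPKM at 20 nM, and 34.3 and 34.3 FPKM at 100 nM. At 24 h it read 55.2 and 53.3 FPKM in solvent, 35.3 and 36.1 FPKM at 20 nM, and 27.9 and 27.0 FPKM at 100 nM. Solvent lay above every drug library at both times, and the 100 nM, 24 h libraries were again the lowest. The log2 changes were -0.56 (SE 0.04, adjusted p = 8.32e-05) and -0.60 (SE 0.04, adjusted p = 3.34e-05) at 16 h, and -0.59 (SE 0.04, adjusted p = 6.74e-05) and -0.96 (SE 0.04, adjusted p = 2.68e-06) at 24 h.

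BIRC5 (ENSG00000089685, chromosome 17, 78214186 to 78225636, plus strand), survivin, which helps to place the complex at centromeres and belongs by its fold to the inhibitor of apoptosis family, went the other way at 16 h. It read 78.3 and 75.9 FPKM in solvent, 107 and 109.6 FPKM at 20 nM, and 119.9 and 102 FPKM at 100 nM. Drug libraries lay above solvent and overlapped between doses, with log2 changes of 0.49 (SE 0.08, adjusted p = 0.00522) and 0.52 (SE 0.08, adjusted p = 0.00266). At 24 h BIRC5 had the widest spread between duplicates of the 9 genes in solvent, 91.8 and 78.7 FPKM, beside 70.5 and 66.9 FPKM at 20 nM and 88.2 and 86.6 FPKM at 100 nM. The 20 nM libraries were lowest (log2 change -0.30, SE 0.08, adjusted p = 0.0252), a call that ended without library 8 (adjusted p = 0.102) or without library 11 (adjusted p = 0.165). The change at 100 nM was 0.040 with a 95% interval of -0.15 to 0.23 (adjusted p = 0.752), and its sign turned to -0.056 with rescaling to a common sum.

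CDCA8 (ENSG00000134690, chromosome 1, 37692418 to 37709719, plus strand), borealin, which binds survivin and INCENP, read 38.8 and 38.2 FPKM in solvent, 42.8 and 42.9 FPKM at 20 nM, and 48.2 and 48.7 FPKM at 100 nM after 16 h. At 24 h it read 39.1 and 38.5 FPKM in solvent, 33.6 and 33.0 FPKM at 20 nM, and 33.5 and 33.5 FPKM at 100 nM. Drug libraries were thus above solvent at 16 h and below it at 24 h, without overlap. The log2 changes were 0.15 (SE 0.04, adjusted p = 0.0213) and 0.32 (SE 0.04, adjusted p = 0.000343) at 16 h, and -0.22 (SE 0.04, adjusted p = 0.00278) and -0.21 (SE 0.04, adjusted p = 0.00258) at 24 h. The smallest of these, at 20 nM and 16 h, was not called without library 1 (adjusted p = 0.103), library 2 (0.106), library 5 (0.0739) or library 6 (0.102).

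**Figure D2:**
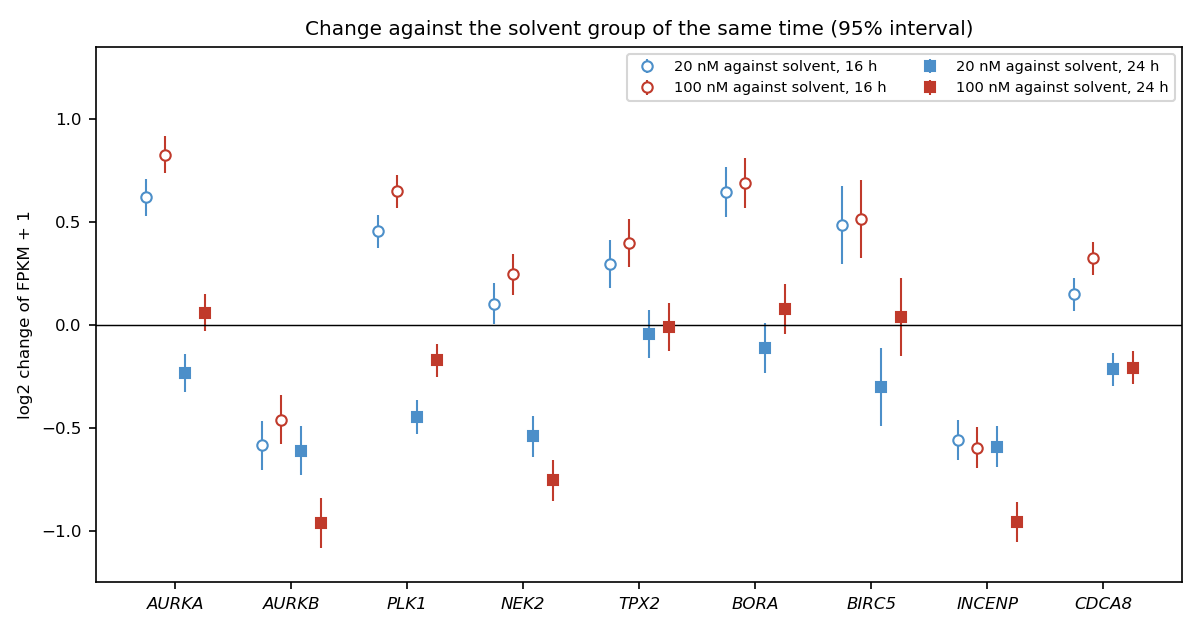
Difference of log2(FPKM + 1) from the solvent group of the same time (vertical axis) for each of the 9 genes (horizontal axis) at 20 nM and 100 nM and at 16 h and 24 h, with 95% intervals from the limma fit. AURKB and INCENP lie below 0 in all 4 comparisons, and the other 7 genes lie above 0 at 16 h.

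The balance within the passenger complex, as a ratio of FPKM levels in the same library, showed which genes kept step. AURKB stood at 1.49 to 1.85 times INCENP in all 12 libraries, and the ranges of drug and solvent libraries overlapped. BIRC5 stood at 1.44 to 1.66 times INCENP in the 4 solvent libraries, 2.96 to 3.50 times in the 4 drug libraries at 16 h, 1.86 to 2.00 times at 20 nM and 24 h, and 3.16 to 3.204 times at 100 nM and 24 h. CDCA8 to INCENP followed the same order, 0.709 to 0.751 in solvent against 1.18 to 1.42 with drug at 16 h, 0.914 to 0.951 at 20 nM and 24 h, and 1.198 to 1.24 at 100 nM and 24 h. Both ratios were thus higher in every drug library than in every solvent library, also at 24 h, where CDCA8 itself had fallen. Between the Aurora kinases, AURKA to AURKB was 1.26 to 1.33 in solvent, 2.85 to 3.23 with drug at 16 h, 1.64 to 1.73 at 20 nM and 24 h, and 2.52 to 2.78 at 100 nM and 24 h. These ratios restate the levels above and were not tested on their own.

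**Figure D3:**
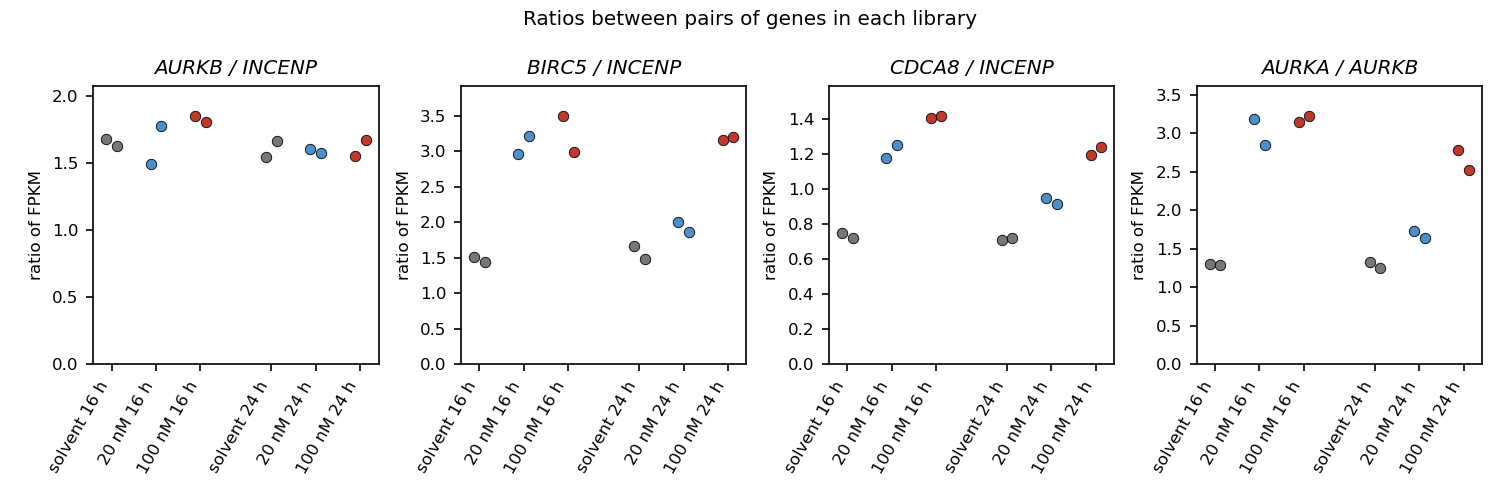
Ratios of FPKM levels between pairs of genes (vertical axes, linear, from 0) in each library, by group on the horizontal axes, 1 point for each library. AURKB to INCENP stays between 1.49 and 1.85, while BIRC5 to INCENP, CDCA8 to INCENP and AURKA to AURKB are lowest in the solvent libraries.

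The order of levels also shifted. In solvent at 16 h it ran PLK1, TPX2, AURKA, AURKB, BIRC5, INCENP, NEK2, CDCA8 and BORA, with no overlap between neighbours. At 24 h in solvent it was the same except that NEK2 and INCENP changed places, and there AURKB and BIRC5, and NEK2 and INCENP, overlapped between libraries. With drug, BIRC5 stood above AURKB in all 4 groups, and at 16 h AURKA stood above TPX2 at both doses. INCENP dropped to the eighth place at 20 nM and 16 h, where its libraries overlapped those of BORA, and to the last place at 100 nM and 16 h. At 20 nM and 24 h PLK1 and TPX2 overlapped at the top.

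Whether the drug effect changed between 16 h and 24 h was tested as an interaction in the same fit. At 20 nM 7 of the 9 effects were lower at 24 h than at 16 h, 0 were higher and 2 were not called, against 4.46% lower and 7.06% higher over all genes. At an unadjusted p under 0.05, 7 of the 9 passed, beside 3759 of the 13458 genes tested. PLK1 changed most (a difference of log2 changes of -0.90), then AURKA (-0.85), BIRC5 (-0.79), BORA (-0.76), NEK2 (-0.64), CDCA8 (-0.36) and TPX2 (-0.34). AURKB (-0.025, adjusted p = 0.863) and INCENP (-0.033, adjusted p = 0.774) were the exceptions at this dose. The TPX2 call ended without library 1 (adjusted p = 0.0750), library 2 (0.0528), library 6 (0.0629) or library 12 (0.0683). At 100 nM all 9 effects were called lower at 24 h and 0 higher, against 4.29% lower and 5.87% higher over all genes. For AURKB (-0.46 at 16 h and -0.96 at 24 h) and INCENP (-0.60 and -0.96) this was a deeper fall. AURKA, TPX2, BORA and BIRC5 had risen at 16 h and were not called at 24 h, while PLK1, NEK2 and CDCA8 went from a rise to a fall. NEK2 changed most there (-1.001), followed by PLK1 (-0.82) and AURKA (-0.77), and INCENP (-0.36) least. BIRC5 (-0.48, adjusted p = 0.0368) was not called without any one of libraries 1, 2, 3, 5, 6, 9, 10 and 11 (adjusted p from 0.0581 to 0.103). The median over the 9 genes was -0.64 at 20 nM and -0.53 at 100 nM, beside 0.032 and 0.014 over all genes tested.

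Of the 9 genes, PLK1 alone was called between the solvent groups, with a higher level at 24 h (log2 change 0.21, SE 0.04, adjusted p = 0.0181). Among all genes 3.14% were called higher and 2.47% lower. The other 8 were not called, with 95% intervals that lay between -0.11 and 0.33. At an unadjusted p under 0.05, 2 of the 9 passed, beside 3410 of the 13458 genes tested. The PLK1 call ended without library 5 (adjusted p = 0.0971), library 6 (0.0775), library 11 (0.0772) or library 12 (0.110). The 24 h drug libraries were compared with the higher solvent level: PLK1 at 100 nM and 24 h (169.6 and 171 FPKM) lay above the 16 h solvent libraries (167 and 165 FPKM) while below those of its own time.

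Between the doses, 0 of the 9 genes were called at 16 h by limma, where 0.0446% of all genes were higher at 100 nM and 0.275% lower. At an unadjusted p under 0.05, 5 of the 9 passed, beside 1634 of the 13458 genes tested. All 5 were higher at 100 nM: AURKA (0.21, adjusted p = 0.0855), PLK1 (0.19, adjusted p = 0.0760), CDCA8 (0.17, adjusted p = 0.0967), NEK2 (0.14, adjusted p = 0.237) and AURKB (0.13, adjusted p = 0.386). For the remaining 4 the 95% intervals were -0.013 to 0.22 (TPX2), -0.079 to 0.16 (BORA), -0.16 to 0.22 (BIRC5) and -0.14 to 0.061 (INCENP). At 24 h 2 of the 9 were called higher at 100 nM and 3 lower, against 1.82% and 3.06% of all genes. AURKA (0.29, SE 0.04, adjusted p = 0.00889) and PLK1 (0.28, SE 0.04, adjusted p = 0.00716) were higher at the higher dose. INCENP (-0.37, SE 0.04, adjusted p = 0.00551), AURKB (-0.35, SE 0.05, adjusted p = 0.0126) and NEK2 (-0.21, SE 0.04, adjusted p = 0.0314) were lower. The libraries of the doses did not overlap for 7 of the 9 genes: these 5, and BIRC5 and BORA. The share of all genes without such overlap was not computed. BIRC5 (0.34, 95% interval 0.15 to 0.53, adjusted p = 0.0530) and BORA (0.19, 0.068 to 0.31, adjusted p = 0.0799) were not called, nor were TPX2 (0.037, -0.079 to 0.15) and CDCA8 (0.0091, -0.071 to 0.090).

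These dose calls at 24 h were less stable than those against solvent. Fitted on the 24 h libraries alone, none of the 5 passed (adjusted p from 0.0564 to 0.114). With libraries rescaled to a common sum NEK2 was not called (-0.12, adjusted p = 0.126 in limma), while BORA (0.28) and BIRC5 (0.43) were called higher. Without library 9 the calls of AURKA (adjusted p = 0.0786), AURKB (0.0977), PLK1 (0.0655) and NEK2 (0.166) ended, and without library 10 those of AURKB (0.0601), PLK1 (0.0582) and NEK2 (0.125). Without library 8 those of AURKB (0.0620) and NEK2 (0.111) ended, and NEK2 was also not called without library 5 (0.0531), 6 (0.0530), 11 (0.0506) or 12 (0.0505). INCENP was called whichever library was left out, with adjusted p from 0.00653 to 0.0477. The median over the 9 genes was 0.13 at 16 h and 0.037 at 24 h, beside -0.0033 and -0.028 over all genes.

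Across the 12 libraries, correlations of log2(FPKM + 1) put the genes side by side as a description, since the points share 6 groups, their duplicates and a scale. AURKB and INCENP went together (r = 0.97), as did AURKA with BORA (0.97), TPX2 with BORA (0.96) and AURKA with PLK1 (0.95). Among the 9, CDCA8 was closest to PLK1 (0.93), with AURKA (0.90) and NEK2 (0.89) next. AURKA and AURKB were nearly unrelated (-0.14), and so were AURKB and PLK1 (0.040).

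**Figure D4:**
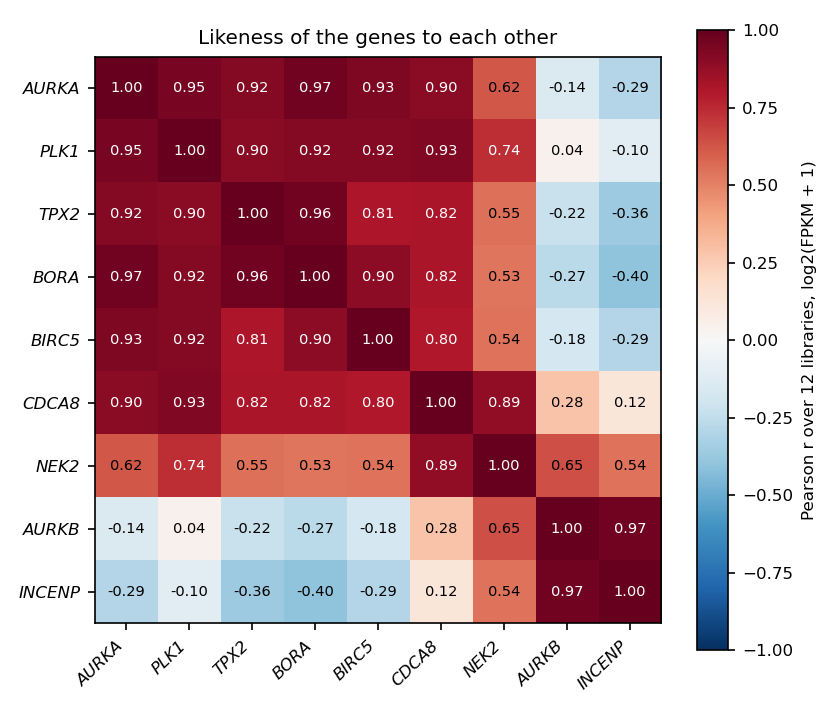
Pearson correlation of log2(FPKM + 1) over the 12 libraries between each pair of the 9 genes (both axes), with the value of r in each cell and on the colour scale. AURKB and INCENP form a pair (0.97) apart from AURKA, PLK1, TPX2 and BORA.

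Among the 11660 protein-coding genes tested, the 3 most like each member over the same 12 libraries were named by r. For AURKA they were CCNB1, cyclin B1 (0.993), KNSTRN (0.987) and CKS2 (0.985), and for PLK1 they were LTBR (0.990), DEPDC1B (0.982) and CENPA (0.977). The mitotic kinesin KIF20A led for both BORA (0.991, then IMPAD1 0.981 and ANKRD11 0.975) and TPX2 (0.969, then BORA 0.964 and IMPAD1 0.963). For AURKB they were FAM83D (0.988), ABCC2 (0.986) and APLP2 (0.984), and for INCENP they were FLOT2 (0.994), ADGRE5 (0.992) and SLFN5 (0.987). NEK2 was most like DNAJA1 (0.976), ASPM (0.973) and KIF14 (0.961), CDCA8 most like DNAJA4 (0.978), CCSAP (0.974) and KDM3B (0.972), and BIRC5 most like MKNK2 (0.971), TROAP (0.964) and SHANK3 (0.958).

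The genes around these kinases also split. Of 12 AURKA partners, 11 were tested (NEDD9 was not), and 1 rose and 4 fell at 20 nM and 16 h, 2 rose and 4 fell at 100 nM and 16 h, 0 rose and 8 fell at 20 nM and 24 h, and 1 rose and 8 fell at 100 nM and 24 h. Their median log2 changes were -0.043, -0.18, -0.34 and -0.44 in that order, to be read beside the all-gene medians and shares given above. FZR1, the activator of the anaphase-promoting complex that marks AURKA for destruction, fell from a mean of 40.0 FPKM in solvent to 21.2 and 17.9 FPKM at 16 h (log2 changes -0.89 and -1.12, adjusted p = 3.64e-05 and 5.44e-06) and fell by 0.60 and 0.92 on the log2 scale at 24 h. FAM83D, a spindle protein that binds HMMR, fell in all 4 comparisons (-0.72, -0.62, -0.80 and -1.41), from a mean of 61.9 to 22.7 FPKM at 100 nM and 24 h. HMMR, a microtubule-binding protein that helps TPX2 to reach the spindle, rose at 16 h (0.36 and 0.48) and fell at 24 h (-0.34 and -0.43). TACC3, an AURKA substrate on the spindle, rose at 100 nM and 16 h (0.32), was not called at 20 nM and 16 h (0.18) and fell at 24 h (-0.22 and -0.25).

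All 17 PLK1 partners were tested. At 16 h 5 rose and 6 fell at 20 nM, and 7 rose and 6 fell at 100 nM, and at 24 h 1 rose and 7 fell, and 1 rose and 10 fell (medians 0.076, 0.055, -0.10 and -0.19). The all-gene shares and medians given above are the background of these counts too, and the list was not tested against them. KIF20A, a kinesin of the central spindle that binds PLK1, rose at 16 h from a mean of 51.1 FPKM to 81.5 and 88.7 FPKM (0.66 and 0.79), fell at 20 nM and 24 h (-0.18) and was not called at 100 nM and 24 h (0.065). CEP55, a protein of the midbody, rose at 16 h (0.44 and 0.51) and at 100 nM and 24 h (0.16), and was not called at 20 nM and 24 h (0.077). FBXO5 (EMI1), which restrains the anaphase-promoting complex and is marked for destruction by PLK1, fell from 38.1 FPKM to 17.9 and 11.6 FPKM at 16 h (-1.05 and -1.64, adjusted p = 1.36e-05 and 6.87e-07) and was not called at 24 h (0.14 and -0.14). CDC25C, the phosphatase that activates CDK1, fell in all 4 comparisons (-0.43, -0.32, -0.49 and -1.06). The checkpoint protein BUB1B rose at 16 h (0.38 at both doses) and fell at 24 h (-0.55 and -0.35).

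All 20 partners of the passenger complex were tested. At 16 h 6 rose and 6 fell at 20 nM, and 8 rose and 5 fell at 100 nM, and at 24 h 2 rose and 9 fell, and 1 rose and 8 fell (medians 0.036, 0.11, -0.087 and -0.12). Here again the counts are to be read beside the all-gene shares and medians, against which the list was not tested. SGO2, a protector of centromeric cohesion that helps to recruit the complex, rose at 16 h (0.44 and 0.61) and fell at 24 h (-0.31 and -0.33). KLHL21, a ubiquitin ligase adaptor for AURKB, rose at 16 h (0.45 and 0.61) and at 100 nM and 24 h (0.52), and was not called at 20 nM and 24 h (0.24). HASPIN, the histone kinase whose mark survivin reads at centromeres, fell in all 4 comparisons (-0.28, -0.44, -0.25 and -0.34). The kinesin KIF2C, which AURKB controls at centromeres, fell at 20 nM and 16 h (-0.14) and at 24 h (-0.33 and -0.58) and was not called at 100 nM and 16 h (0.037).

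Of 19 other mitotic kinases and NEK2 partners, 18 were tested (AURKC was not). There 4 rose and 2 fell at 20 nM and 16 h, 4 rose and 3 fell at 100 nM and 16 h, 2 rose and 7 fell at 20 nM and 24 h, and 3 rose and 7 fell at 100 nM and 24 h (medians -0.061, -0.073, -0.15 and -0.0094). At 20 nM and 16 h 912 of all 13458 genes tested were called higher and 1476 lower. The other counts are likewise to be read beside the all-gene shares given above, and the list was not tested against them. CDK1 fell in all 4 comparisons (-1.13, -1.31, -0.32 and -0.86). Its partner CCNB1 rose at 16 h (0.60 and 0.78) and at 100 nM and 24 h (0.16), and fell at 20 nM and 24 h (-0.18). TTK, the checkpoint kinase, fell at 16 h (-0.41 and -0.23) and at 100 nM and 24 h (-0.76), and was not called at 20 nM and 24 h (-0.22, adjusted p = 0.0526 in limma). Of the 8 genes of the inhibitor of apoptosis family and its antagonists, 6 were tested (BIRC3 and BIRC7 were not), to set BIRC5 beside its relatives. In this list 0 rose and 1 fell at 20 nM and 16 h, 0 rose and 2 fell at 100 nM and 16 h, 2 rose and 2 fell at 20 nM and 24 h, and 1 rose and 2 fell at 100 nM and 24 h (medians -0.14, -0.082, 0.15 and -0.024). At 100 nM and 24 h 15.4% of all genes were called higher and 18.4% lower. With 6 genes tested, such counts cannot be told from the all-gene shares, and no test against them was run. DIABLO, a mitochondrial antagonist of the family, fell at 16 h (-0.52 and -0.65) and was not called at 24 h (0.13 and -0.13), and BIRC6 fell at 24 h (-0.39 and -0.50) and was not called at 16 h (-0.14 and 0.12).

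The calls of higher genes in these lists at 24 h depended on the scaling, an alternative chosen for the lists after seeing the data. With libraries rescaled to a common sum, 0 genes of any of the 5 lists rose at 20 nM and 24 h, and 8 of the AURKA partners, 12 of the PLK1 partners, 13 of the passenger complex partners, 10 of the other mitotic kinases and NEK2 partners and 2 of the apoptosis list fell. Over all genes tested, this scaling gave 570 higher and 4666 lower at that dose and time, with a median of -0.16. These list counts are to be read beside that shift of all genes. The median of the apoptosis list at that dose and time then turned to -0.033. With median-of-ratios scaling the medians at 100 nM and 24 h turned to 0.020 for the other kinases and to 0.0059 for the apoptosis list. Of the calls given above for named list genes, those of CEP55 (0.067) and CCNB1 (0.065) at 100 nM and 24 h were lost with the common sum. Those of KIF2C at 20 nM and 16 h (-0.11) and TTK at 100 nM and 16 h (-0.19) were lost with median-of-ratios scaling, and the others were kept under both. Calls were gained with the common sum by TTK at 20 nM and 24 h (-0.40) and by FBXO5 (-0.23) and DIABLO (-0.23) at 100 nM and 24 h, and with median-of-ratios scaling by TTK at 20 nM and 24 h (-0.22).

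**Figure D5:**
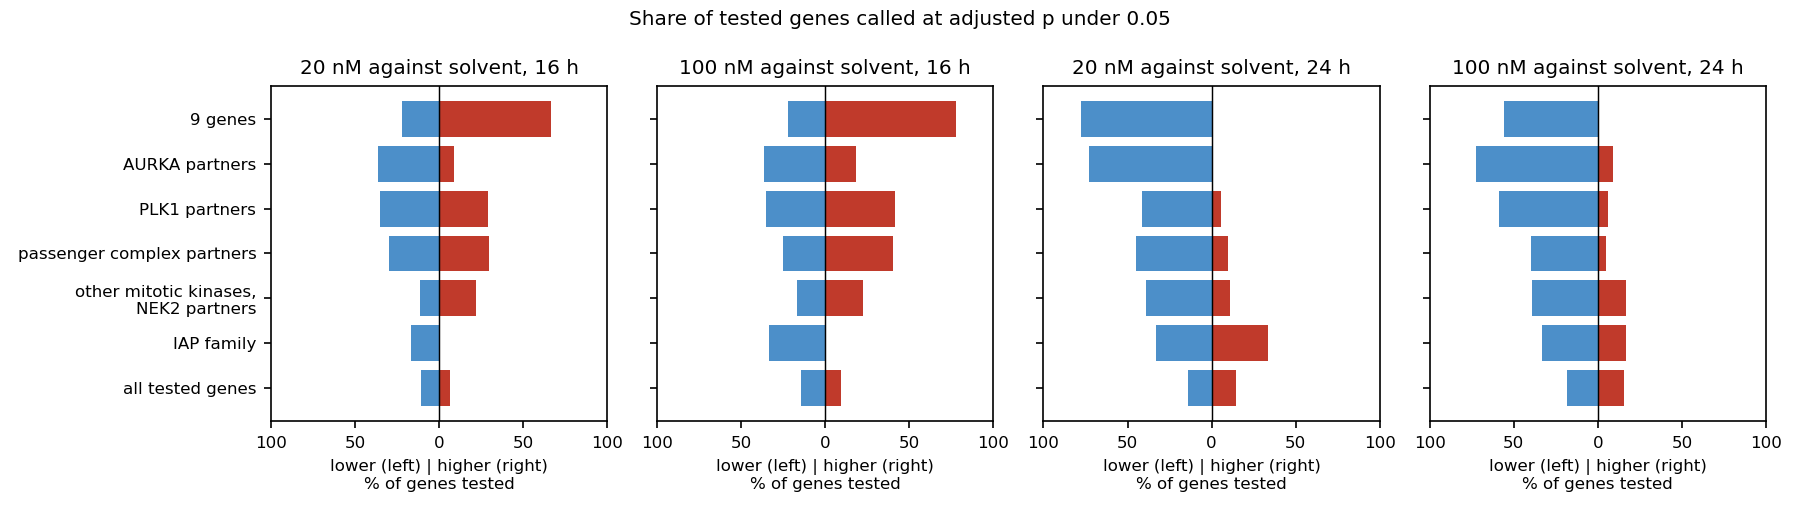
Share of tested genes called higher (bars to the right, percent) or lower (bars to the left, percent) at an adjusted p under 0.05 in the 4 drug comparisons, for the 9 genes, the 5 partner lists and all 13458 tested genes. At 16 h the bars of the 9 genes reach farther to the right than to the left (6 against 2 and 7 against 2 genes), and at 24 h they point only to the left.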

How the data were processed

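The authors deposited 1 table of FPKM per gene and library, rounded to 2 decimals, for 58174 Ensembl genes in 12 libraries. Per the submitters' processing notes, RSEM 1.2.28 and the GRCh38 build were used. Which aligner, gene annotation and strand option went into it is not given in the sources used here. Symbols and positions come from GENCODE 29 (57836 genes matched, 338 did not). No counts are in the table, so depth is unknown and no counting interval is given.

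Genes with at least 1 FPKM in at least 2 libraries (13458) were fitted on log2(FPKM + 1) in limma 3.58.1 (R 4.3.3) with 6 group means and a mean-dependent prior (6 residual and 2.98 prior degrees of freedom). The pseudocount understates changes of low genes. Tests were two-sided, with Benjamini-Hochberg adjustment over all tested genes of each of 9 comparisons and calls at an adjusted p under 0.05. The fit was run on simulated data, drawn as independent normal values from its own means and spreads with known changes added. Such data cannot show the effect of FPKM scaling or of technical duplicates. Within groups, log2 values of duplicates correlated at 0.991 to 0.994 and 1.00% to 1.20% of tested values were identical, so no pair looked like 1 library deposited under both names.

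The 9 genes and the 5 partner lists (76 symbols) were chosen with earlier results of these data known. All 9 genes are named, and from each list only genes with the largest or second largest called change in either direction of a drug comparison, each with its value in the 4 drug comparisons. Not every gene that met this rule is named. Those left out include CENPU, CUL3, DSN1, MASTL, PPP1CC, PLK2, AURKAIP1, BIRC2 and HTRA2, called higher at 24 h at either dose. NINL, PSRC1, RCC2, NEK9 and NAIP, called lower at 24 h, were also left out. DSN1 had the largest called fall of the passenger list at 16 h (-0.41 and -0.48). For each of the 9, the 3 protein-coding genes with the highest correlation are named. Alternatives were pseudocounts of 0.1 and 0.5, no filter, a filter of 5 FPKM, scaling to a common sum or by median of ratios, a constant prior, fits on 1 time point, and fits with a library left out in turn. Table columns carry library numbers without the labels' sample numbers, so nothing was paired.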

Additional observations from a re-analysis of the deposited data

Results flagged for a closer look

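The drug effect of 16 genes and doses differed between 24 h and 16 h, by a test of the difference itself in limma (values are the log2 change at 24 h minus that at 16 h, and all are negative). At 20 nM they were AURKA (-0.85), PLK1 (-0.90), NEK2 (-0.64), TPX2 (-0.34), BORA (-0.76), BIRC5 (-0.79) and CDCA8 (-0.36). At 100 nM they were AURKA (-0.77), AURKB (-0.50), PLK1 (-0.82), NEK2 (-1.001), TPX2 (-0.41), BORA (-0.61), BIRC5 (-0.48), INCENP (-0.36) and CDCA8 (-0.53). Over all genes, 4.46% were called lower and 7.06% higher at 20 nM, and 4.29% lower and 5.87% higher at 100 nM. The calls of TPX2 at 20 nM and of BIRC5 at 100 nM depended on which library was left out, as given above. Each group had 2 libraries, too few for a test of outlying libraries. Both doses share the solvent libraries of each time.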

How the results depend on the processing

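Of 1593 recomputed values of the 9 genes over 20 settings, 1509 kept their direction and their side of the threshold, 45 lost and 14 gained a call, and 25 turned in sign. None of those 25 was past the threshold on the turned side, and the farthest was 0.083 from 0. Against solvent, 703 of 720 values kept direction and call. Changing the filter or prior, fitting that time alone, or leaving out a library outside the compared groups cannot move a log2 change, only its adjusted p. These tallies thus hold many values whose direction could not turn.

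Rescaling to a common sum turned AURKA (-0.036), BORA (-0.013) and BIRC5 (-0.056) at 100 nM and 24 h and BIRC5 between doses at 16 h (-0.0071). Median-of-ratios scaling turned TPX2 at 100 nM and 24 h (0.023) and AURKA (-0.021), AURKB (-0.013) and CDCA8 (-0.011) between solvent times. Leaving out a library turned TPX2 at 24 h (-0.11 to 0.022 at 20 nM and -0.047 to 0.031 at 100 nM) and BIRC5 at 100 nM and 24 h (-0.071 to 0.15). Between doses it turned BORA (-0.0058 to 0.090), BIRC5 (-0.083 to 0.14) and INCENP (-0.079 to 0.0051) at 16 h, and TPX2 (-0.030 to 0.10) and CDCA8 (-0.0042 to 0.022) at 24 h. Between solvent times it turned AURKA (-0.011 to 0.013), AURKB (-0.020 to 0.037) and CDCA8 (-0.0015 to 0.022), and for the 20 nM effect at 24 h minus 16 h it turned AURKB (-0.10 to 0.054) and INCENP (-0.075 to 0.0095). The cause was not tested.

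Between doses, the count of the 9 genes called higher at 16 h went from 0 to 1 (CDCA8) without a filter and ranged from 0 to 1 with a library left out. At 24 h it went from 2 to 4 under each of the rescalings and to 0 with that time alone, and ranged from 0 to 3. The count called lower at 24 h went from 3 to 0 with that time alone and ranged from 1 to 3. Between solvent times the count called higher ranged from 0 to 1. Without a filter BIRC5 lost its calls at 20 nM and 24 h (adjusted p = 0.0692 in limma) and for the 100 nM effect between times (0.0946), and a constant prior ended the latter (0.0565) and NEK2 between doses at 24 h (0.0582). Rescaling to a common sum also ended that NEK2 call (0.126).

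Over all genes, counts called (higher, then lower) moved more than 1.5 times in these cases. Between doses at 16 h, 6 and 37 became 13 higher without a filter, 2 and 56 with a common sum, 2 higher with a constant prior, and 0 and 18 with that time alone. Between doses at 24 h, 245 and 412 became 125 and 209 without a filter, 785 and 163 with a common sum, 392 higher with median of ratios, 127 higher with a constant prior, and 4 and 6 with that time alone. Between solvent times, 423 and 333 became 181 and 145 without a filter, 967 and 212 with a common sum, 572 lower with median of ratios and 209 lower with a constant prior. For the 20 nM effect between times, 950.0 and 600.0 became 609 and 399 without a filter, and 345 and 2110.0 with a common sum, which moved its all-gene median from 0.032 to -0.14. For the 100 nM effect, 578 lower became 903 with a common sum. With a library left out, all-gene counts ranged from 335 to 1115 and 652 to 1663 (20 nM, 16 h), 591 to 1428 and 1081 to 2194 (100 nM, 16 h), 1084 to 1925 and 1069 to 1844 (20 nM, 24 h), 1163 to 2318 and 1594 to 2692 (100 nM, 24 h), 0 to 11 and 13 to 54 (doses, 16 h), 9 to 793 and 32 to 733 (doses, 24 h), 11 to 726 and 11 to 722 (solvent times), 431 to 978 and 269 to 781 (20 nM effect), and 356 to 1041 and 252 to 751 (100 nM effect). A group left with 1 library was assumed to vary like the others. No paired analysis was possible because the table numbers its libraries 1 to 12 and leaves out the labels' sample numbers. Depth is unknown, and 2 libraries a group limit what can be detected.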
